A study of Rattus norvegicus with 6 samples.

Results

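Krüppel-like factors (KLFs) were followed through RNA sequencing of rat primary astrocytes, the star-shaped support cells of the brain grown in culture, with and without the ketone body β-hydroxybutyrate (BHB). The 10 genes Klf2, Klf3, Klf4, Klf5, Klf6, Klf9, Klf10, Klf11, Klf13 and Klf15 were taken by symbol from the 22608 genes of the deposited table. These 10 were chosen with earlier results of these data known. All 10 were found, and all 10 stood at 1 FPKM or more in all 6 libraries. FPKM is a fragment count divided by transcript length and by sequencing depth, so levels can be set side by side between genes. The control group was 3 libraries of astrocytes labelled as control, and the BHB group was 3 libraries of BHB-treated astrocytes, whose dose of 2 mM is given by the column names. Neither the labels nor the table header gives the strain, age or number of animals, how long BHB was applied, or what the controls received. Whether the replicate libraries derive from different cultures is likewise unstated, so the variation behind the p-values may be technical rather than biological.

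KLFs are transcription factors that bind GC-rich and CACCC-type DNA elements through zinc fingers at their carboxyl end, and differ mainly in the regions that recruit coactivators or corepressors. By those regions the family is usually sorted into repressors that bind the corepressor CtBP (Klf3 here), factors that mainly activate (Klf2, Klf4, Klf5 and Klf6), and repressors that bind the corepressor Sin3A (Klf9, Klf10, Klf11 and Klf13), with Klf15 outside these groups. Several respond quickly to outside signals: Klf2, Klf4, Klf6 and Klf10 to growth factors, serum or cytokines, and Klf9 and Klf15 to glucocorticoids. BHB is made by the liver during fasting and is both a fuel for the brain and, at high concentrations, an inhibitor of histone deacetylases.

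The libraries were alike in their totals, with 12288 to 12312 genes at 1 FPKM or more and FPKM sums of 354565 to 367448. Depth is not recorded in FPKM. The commonest ratio to control 1 in genes below 0.1 FPKM, where a value is a few reads, puts the depth of the other libraries at 0.990 to 1.18 times that of control 1. Astrocyte markers were abundant, with a summed level over 10 markers of 4647 to 4902 FPKM in controls, against 5051 to 5073 FPKM after BHB. The glial glutamate transporter gene Slc1a3 (202.7 ± 5.003 FPKM without and 455.2 ± 11.6 FPKM with BHB, SD, n = 3 per group) was the only marker called between the groups. It is part of those sums and had the largest log2 fold change of the 10 markers (1.16), of which 6 lay above 0 and 4 below. Fibroblast and mural cell markers were as abundant, at 4483 to 4858 FPKM in controls, against 4637 to 5021 FPKM after BHB, mostly from the contractile genes Tagln and Acta2. The rest of that list, named after their values were seen, ranged widely in controls. Dcn was at 0.0108, Lum at 0.119, Vtn at 0.0098 and Rgs5 at 1.26 FPKM. Col3a1 was at 13.9, Pdgfrb at 26.8, Col1a1 at 98.8 and Col1a2 at 270.9 FPKM.

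No KLF gene of the 10 was called between BHB and control, at an adjusted p under 0.05, by the test over all genes. The test was limma on log2(FPKM + 1) over the 12373 genes that reached 1 FPKM in 3 or more libraries, with Benjamini-Hochberg adjustment over all of them, and it called 7 genes (0.0566%). Of the 10 KLF genes 5 lay above 0 and 5 below, beside 51.5% above 0 among all genes tested. Their median log2 fold change was 0.01, beside 0.0029 over all genes tested. The median size of the difference, regardless of sign, was 0.05 for the KLF genes and 0.06 for all genes tested. In 9 of the 10 genes the means of the groups differed by under 10 percent. Klf4 was the exception, and the single KLF gene with an unadjusted p under 0.05, a mark reached by 692 genes (5.59%). It was also the single KLF gene whose groups did not overlap, which held for 1347 genes (10.9%). A share of 1 in 10 is near both of these background shares. Leaving out 1 library moved these counts. Klf4 was joined by 1 more KLF gene without overlap when control 1, control 3 or BHB 2 was left out and by 2 more without BHB 3, while the number of all genes whose groups do not overlap was 2152 to 3246 with 1 library left out. Without BHB 2 the number of all genes with an unadjusted p under 0.05 fell to 426.

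**Figure D1:**
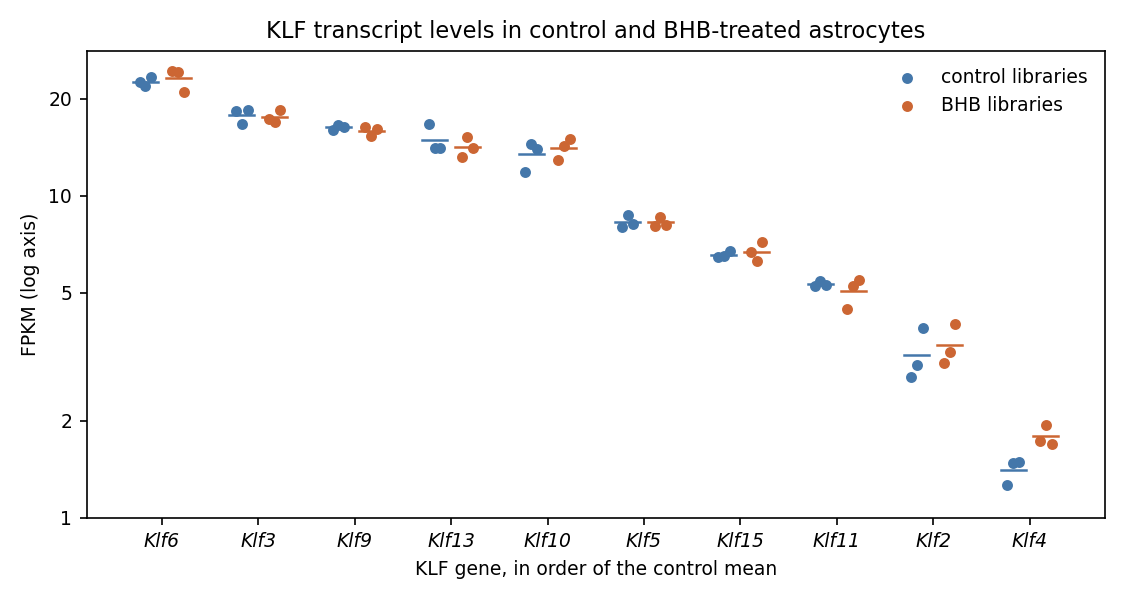
FPKM of each KLF gene in each library, on a log axis. Points are libraries (3 controls in blue, 3 BHB in orange), short lines are group means, and genes are ordered by their control mean from Klf6 (22.6 FPKM) to Klf4 (1.41 FPKM); the groups lie apart in Klf4 and overlap in the other 9 genes.

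The order of the levels was the same in both groups. Klf6 was the highest, followed by Klf3, Klf9, Klf13, Klf10, Klf5, Klf15, Klf11, Klf2 and Klf4. Over the 6 libraries the range of each gene lay clear of that of the next in the order, except for Klf9 over Klf13 and Klf13 over Klf10. Klf9 exceeded Klf13 in 5 of 6 libraries and Klf13 exceeded Klf10 in 4 of 6, so those neighbours could not be set apart. Among the genes tested, Klf6 stood at the 73.1 percentile of mean level and Klf4 at the 6.60 percentile. The 10 genes summed to 109.9 ± 1.68 FPKM in controls against 110.2 ± 1.86 FPKM after BHB (SD, n = 3 per group). Klf6 supplied 20.1% to 20.9% of that sum in controls and 18.9% to 22.5% with BHB. Klf4 supplied 1.16% to 1.36% in controls and 1.52% to 1.75% with BHB.

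Klf4, an activator and repressor known for its part in reprogramming cells to pluripotency and in endothelial and myeloid cells, was the member with the largest difference. It stood at 1.27, 1.48 and 1.49 FPKM in controls 1, 2 and 3 and at 1.74, 1.95 and 1.69 FPKM in BHB 1, 2 and 3. All 3 BHB libraries lay above all 3 controls, and the gap between the nearest libraries of the groups, control 3 and BHB 3, was smaller than the range within either group. The means were 1.41 ± 0.126 and 1.79 ± 0.135 FPKM (SD, n = 3 per group), a ratio of 1.27. Its log2 fold change was 0.21 (SE 0.0844, 95% interval 0.02 to 0.40), with an unadjusted limma p of 0.0358 and an adjusted p of 0.881. By unadjusted p Klf4 ranked 474 among the genes tested. The exact two-sided permutation p was 0.1, the smallest that 3 against 3 allows. A pseudocount of 1 understates changes at such a level, and with 0.1 the log2 fold change was 0.32 (adjusted p = 0.886 in limma). Its unadjusted p rose above 0.05 without control 1 (0.117), control 2 (0.0504), BHB 1 (0.0563) or BHB 2 (0.118).

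**Figure D2:**
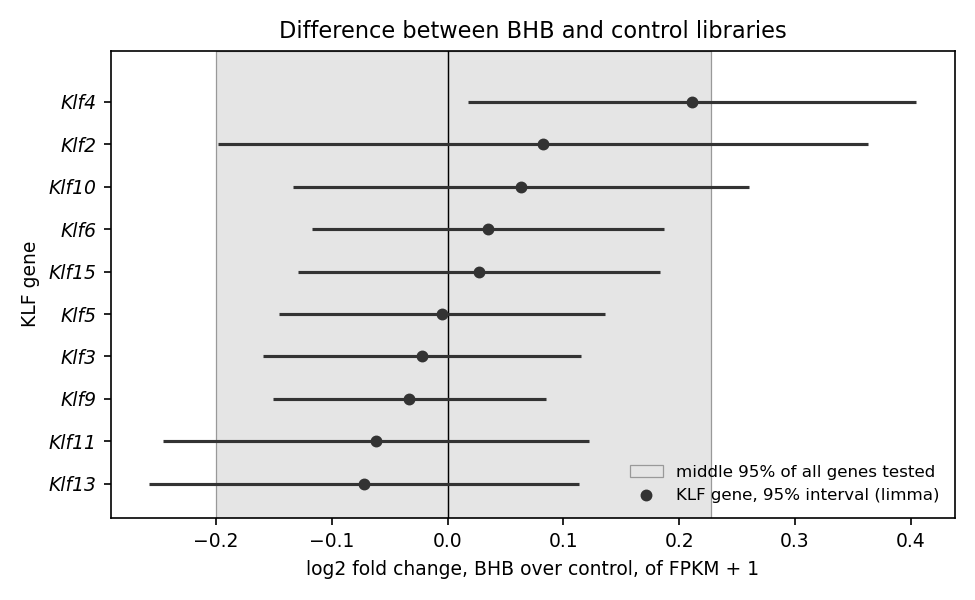
Log2 fold change of BHB over control for each KLF gene, on the log2(FPKM + 1) scale. Points are limma estimates, lines their 95% intervals, and the grey band holds the middle 95% of all genes tested (-0.20 to 0.23); the interval of Klf4 lies above 0 and those of the other 9 genes span 0.

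The other activators varied around their control level. Klf2, which maintains quiescence in endothelium and T cells, was at 2.74, 2.98 and 3.89 FPKM in controls 1 to 3 and at 3.03, 3.28 and 4.0 FPKM in BHB 1 to 3. Control 3 and BHB 3 were the highest of their groups, and the groups overlapped across most of their range. Its group SDs were the widest of the 10 genes relative to the mean, at 18.9% in controls and 14.6% with BHB, beside medians of 6.22% and 6.17% over all genes tested. Its log2 fold change was 0.08 (95% interval -0.20 to 0.36, adjusted p = 0.938 in limma), so a rise of the size seen in Klf4 lies within the interval.

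Klf6, a factor induced by tissue injury, was at 22.5, 21.9 and 23.4 FPKM in controls and at 24.3, 24.3 and 21.0 FPKM with BHB. BHB 1 and BHB 2 were the highest libraries and BHB 3 the lowest of all 6. The fitted log2 fold change was 0.03 (95% interval -0.12 to 0.19, adjusted p = 0.955 in limma). Klf5, which promotes growth of smooth muscle and epithelial cells, was at 8.01, 8.70 and 8.19 FPKM in controls and at 8.06, 8.61 and 8.13 FPKM with BHB. Its values were nearly the same in both groups, and the log2 fold change was -0.0049 (95% interval -0.15 to 0.14, adjusted p = 0.996 in limma).

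Klf3, the repressor that recruits CtBP, was at 18.4, 16.7 and 18.5 FPKM in controls and at 17.3, 17.0 and 18.4 FPKM with BHB. Control 2 and BHB 2 were the lowest of their groups, and the groups overlapped. The log2 fold change was -0.02 (95% interval -0.16 to 0.12, adjusted p = 0.972 in limma).

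The Sin3A-binding repressors included both of the genes first described as TGF-beta inducible, Klf10 and Klf11. Klf10 was at 11.8, 14.5 and 13.98 FPKM in controls and at 12.9, 14.3 and 15.0 FPKM with BHB. Its lowest library was control 1, and the other 5 ran from 12.9 to 15.0 FPKM. Its log2 fold change was 0.06 (95% interval -0.13 to 0.26, adjusted p = 0.936 in limma), and it was -0.02 without control 1. Klf11 was at 5.23, 5.42 and 5.28 FPKM in controls and at 4.46, 5.23 and 5.49 FPKM with BHB. BHB 1 stood below the other libraries, and the log2 fold change of -0.06 (95% interval -0.25 to 0.12, adjusted p = 0.932 in limma) became 0.01 without it.

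Klf9, which glucocorticoids and thyroid hormone induce in neural cells, was the steadiest of the 10 genes, with a highest library 1.08 times the lowest. It was at 15.98, 16.6 and 16.4 FPKM in controls and at 16.3, 15.3 and 16.2 FPKM with BHB. Its log2 fold change was -0.03 (95% interval -0.15 to 0.08, adjusted p = 0.942 in limma). Klf13, known from the late activation of the chemokine gene Ccl5 in T cells, was at 16.7, 14.1 and 14.1 FPKM in controls and at 13.2, 15.2 and 14.05 FPKM with BHB. Control 1 was the highest library and BHB 1 the lowest. The log2 fold change of -0.07 (95% interval -0.26 to 0.11, adjusted p = 0.921 in limma) was the lowest of the 10, and it was 0.0030 without control 1.

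Klf15, a regulator of amino acid and glucose metabolism during fasting, was at 6.45, 6.49 and 6.73 FPKM in controls and at 6.68, 6.25 and 7.19 FPKM with BHB. BHB 3 was the highest library and BHB 2 the lowest. The fitted log2 fold change was 0.03 (95% interval -0.13 to 0.18, adjusted p = 0.971 in limma), and it was -0.02 without BHB 3. The exact two-sided permutation p of the 9 genes other than Klf4 ran from 0.4 (Klf9) to 0.9 (Klf3). The upper ends of their intervals lay at ratios of FPKM + 1 from 1.06 (Klf9) to 1.29 (Klf2) and the lower ends from 0.836 (Klf13) to 0.922 (Klf6). By corepressor and coactivator class, 3 of the 4 activators lay above 0, as did 1 of the 4 Sin3A-binding genes and Klf15, and the CtBP-binding Klf3 lay below, with 0 called in each class.

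**Figure D3:**
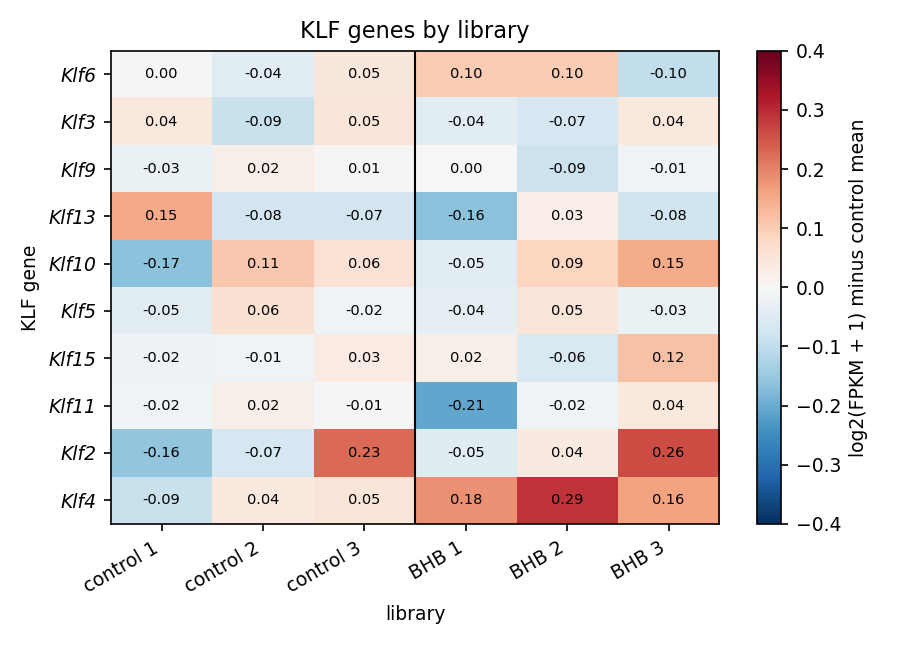
Difference of log2(FPKM + 1) from the control mean for each KLF gene (rows) and library (columns), from blue (lower) to red (higher). Klf4 is above its control mean in all 3 BHB libraries (0.16 to 0.29), while Klf2 is high in control 3 (0.23) and BHB 3 (0.26).

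Library by library, BHB 3 held the highest value of 4 of the 10 genes (Klf2, Klf10, Klf11 and Klf15) and control 1 the lowest value of 4. The range across all 6 libraries was narrow, with a highest to lowest ratio of 1.08 (Klf9) to 1.54 (Klf4). Over the 6 libraries, all labelled with the same tissue and library protocol, the log2 levels of Klf2 followed those of Klf15 (Pearson r = 0.69) and Klf10 (0.69) most closely. The pair that ran most in opposite directions was Klf3 and Klf5 (Pearson r = -0.78, n = 6 libraries). Among genes of at least 10 FPKM in both groups, those with the pattern most like Klf4 were the kinesin gene Kif1c, Cmip and the membrane repair gene Myof (Pearson r = 0.99, 0.99 and 0.98 over 6 libraries). For Klf4 98 of 6297 genes had an r over 0.9. Klf13 was most like the neuronal gene Stmn2, the homeobox gene Otx1 and the chaperone gene Hspa2 (0.98, 0.98 and 0.98), and Klf11 most like Tmem176a, Strn4 and Vezt (0.98 each). With 6 libraries such values describe these libraries only.

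Of the 17 KLF genes of the family list 13 were tested. Outside the 10 genes above, the wider list of KLF and the related SP factors held 17 symbols, of which 16 were in the table and 7 were tested, 3 above 0 and 4 below, with a median log2 fold change of -0.05 and none called or with an unadjusted p under 0.05. Its most abundant member in controls was Sp1, a general activator at GC boxes, at 18.2 ± 0.689 FPKM in controls against 17.1 ± 0.775 FPKM after BHB (SD, n = 3 per group; log2 fold change -0.08, adjusted p = 0.898 in limma). Klf16, a Sin3A-binding repressor, was at 7.80, 7.62 and 5.76 FPKM in controls and at 7.31, 8.01 and 8.39 FPKM with BHB (log2 fold change 0.15, adjusted p = 0.898 in limma). Control 3 was the low library there, and the groups overlapped. Without control 3 the log2 fold change was 0.03. Klf7 and Klf12, named after their values were seen, had log2 fold changes of 0.0015 and -0.05. Klf14 and Klf17 were listed at 0 in all 6 libraries.

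Genes upstream of the KLFs held no call either. The kinase ERK5 and its MEF2 factors, which induce Klf2 and Klf4 in endothelium, had 4 of 7 tested genes above 0 and a median log2 fold change of 0.0024. Mef2d was at 4.93 ± 0.631 FPKM in controls against 5.77 ± 0.823 FPKM after BHB (SD, n = 3 per group; log2 fold change 0.19, adjusted p = 0.890 in limma). The kinases Map2k5, the most abundant of the list at 14.2 FPKM in controls, and Map3k3 had log2 fold changes of -0.04 and -0.08. Serum response factor and its cofactors, which drive early responses to serum, had 2 of 6 above 0 and a median of -0.02. Elk3 stood at 21.1 and 20.3 FPKM and Mkl1, listed now as Mrtfa, at 3.18 and 3.43 FPKM without and with BHB (log2 fold changes -0.05 and 0.09). TGF-beta ligands, receptors and SMADs had 3 of 9 above 0 and a median of -0.02. The ligand gene Tgfb3 stood at 97.7 and 95.5 FPKM, the receptor gene Tgfbr1 at 11.8 and 11.3 FPKM, and the inhibitor gene Smad7 at 10.5 and 11.3 FPKM (log2 fold changes -0.03, -0.06 and 0.10). None of these 3 lists had a gene with an unadjusted p under 0.05 in limma.

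The glucocorticoid receptor and its classic targets, which share their inducer with Klf9 and Klf15, had 5 of 8 tested genes above 0 and a median log2 fold change of 0.02, with no unadjusted p under 0.05 in limma. Ddit4 stood at 34.9 and 35.3 FPKM, Sgk1 at 5.58 and 6.04 FPKM and Sult1a1 at 1.61 and 1.47 FPKM without and with BHB. The receptor gene itself, Nr3c1, named after its values were seen, took 2 levels that did not follow treatment. It was at 33.4 FPKM in control 2 and 34.6 FPKM in BHB 1, and at 10.9 to 11.5 FPKM in the other 4 libraries. In the same control 2 and BHB 1 libraries Klf9 was at 16.6 and 16.3 FPKM and Klf15 at 6.49 and 6.68 FPKM. The source of the 2 levels of Nr3c1, and any bearing on Klf9 or Klf15, was not tested.

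Partners of the KLF proteins had no gene called either. Corepressors and coactivators had 5 of 11 above 0 and a median log2 fold change of -0.01, with no unadjusted p under 0.05 in limma. The corepressor gene Sin3b was the most abundant, at 111.5 ± 5.79 FPKM in controls against 120.4 ± 4.24 FPKM after BHB (SD, n = 3 per group; log2 fold change 0.11, adjusted p = 0.881 in limma), and the acetyltransferase gene Kat2b stood at 31.5 and 29.6 FPKM (-0.09). Ubiquitin ligases that act on KLF proteins had 4 of 6 above 0 and a median of 0.03, again with no unadjusted p under 0.05. Fbxo32 stood at 13.7 and 11.7 FPKM (log2 fold change -0.22, adjusted p = 0.890 in limma), Siah1 at 15.1 and 15.4 FPKM and Smurf1 at 11.3 and 11.6 FPKM without and with BHB.

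Genes described as KLF targets had 9 of 14 tested genes above 0 and a median log2 fold change of 0.03, with none called. An unadjusted p under 0.05 in limma was reached by 1 of the 14, beside 5.59% of all genes tested. That gene was Atf3, a stress-induced transcription factor that also stands in the early response list. It was at 4.86, 7.09 and 6.07 FPKM in controls and at 7.37, 8.56 and 8.02 FPKM with BHB (log2 fold change 0.37, adjusted p = 0.881 in limma). Its groups did not overlap, as in 10.9% of all genes tested. The cell cycle inhibitor genes Cdkn1b and Cdkn1c stood at 86.2 and 84.7 FPKM and at 4.06 and 3.68 FPKM (log2 fold changes -0.03 and -0.11).

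**Figure D4:**
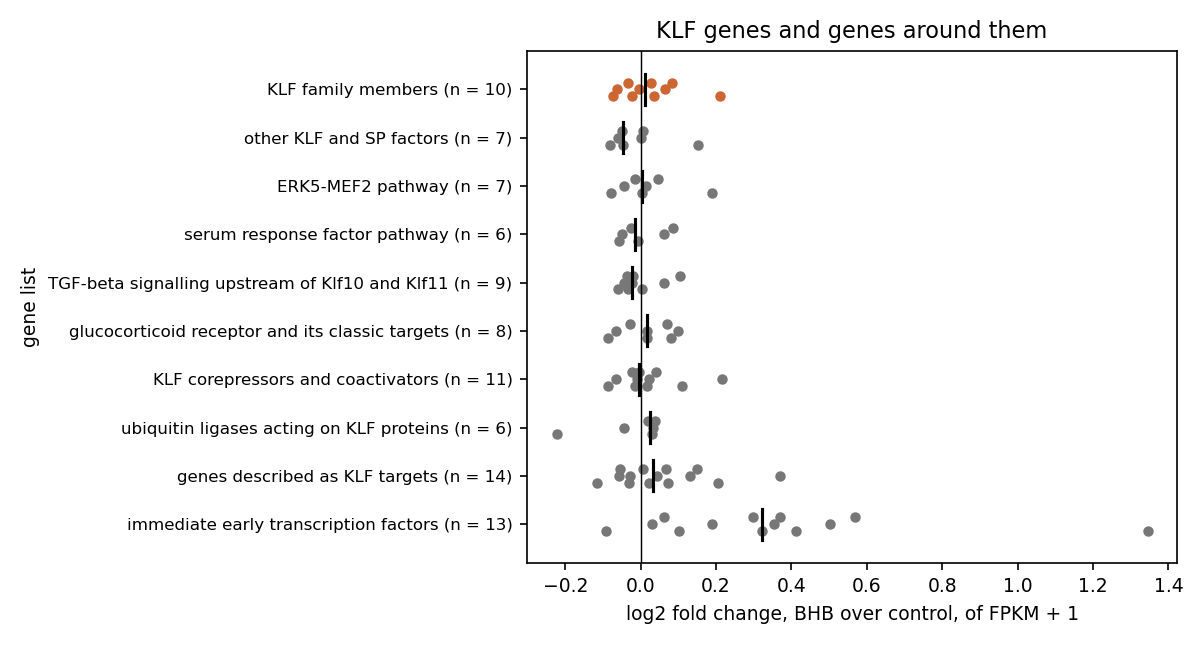
Log2 fold change of BHB over control, on the log2(FPKM + 1) scale, for each tested gene of each list, with the median as a black bar and the 10 KLF genes in orange. The medians of the first 9 lists lie between -0.05 and 0.03, and that of the immediate early factors at 0.32.

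Immediate early transcription factors, the group with which Klf2, Klf4, Klf6 and Klf10 are often counted, had 12 of 13 tested genes above 0 and a median log2 fold change of 0.32. Among all genes tested 51.5% lay above 0. The AP-1 genes Fosb and Fos passed, and 8 genes of the list had an unadjusted p under 0.05 in limma. Over all genes tested the shares were 0.0566% and 5.59%. The list was chosen with earlier results of these data known. Of Fosb and Fos, Fosb alone passed without any single library, with the replicate block, without the eBayes trend and with no minimum. Fosb went from 0.276 ± 0.0840 to 2.24 ± 0.197 FPKM (SD, n = 3 per group; log2 fold change 1.34, adjusted p = 0.00258 in limma). Fosb reached the minimum of 1 FPKM only in the BHB libraries, so it was tested because it was high there. The same held for Nr4a1, named after its values were seen, at 0.610 FPKM in controls against 1.29 FPKM after BHB. Both genes are part of the counts and the median above. With a minimum of 5 FPKM, where neither was tested, the median of the list was 0.31. That minimum also dropped Nr4a2 and Nr4a3, which had the lowest log2 fold changes of the list (-0.09 and 0.03). No counts without Fosb and Nr4a1 alone are given. Jund, the most abundant, stood at 53.9 and 58.0 FPKM (0.10), and Nr4a2 at 1.89 and 1.72 FPKM (-0.09). Klf2, Klf4, Klf6 and Klf10 had log2 fold changes of 0.08, 0.21, 0.03 and 0.06. Klf4 ran from 0.167 to 0.237 with 1 library left out. Its groups did not overlap, so its sign could not turn in those fits. Klf2 was at -0.0064 without BHB 3, Klf10 at -0.02 without control 1 and Klf6 at 0.00087 without BHB 1. The difference between these genes and the early response list was not tested.

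Klf2 and Klf4 are abundant in endothelial and myeloid cells, so the markers of other cell types are given beside them. Of 10 endothelial markers only the junction gene Ocln was tested (2.87 and 3.14 FPKM without and with BHB), and Cldn5 and Emcn were listed at 0 in all libraries. The 10 summed to 4.23 to 4.63 FPKM in controls, against 4.36 to 5.08 FPKM after BHB. Of 10 microglia markers 9 were tested, 4 above 0 and 5 below, with sums of 43.4 to 47.4 FPKM in controls, against 44.3 to 45.1 FPKM after BHB. The microglial receptor gene Cx3cr1 was at 5.42 to 6.07 FPKM in controls, against 4.15 to 4.99 FPKM after BHB (log2 fold change -0.27, adjusted p = 0.881 in limma). Its groups did not overlap, as in 10.9% of all genes tested. It was the 1 gene of the 9 with an unadjusted p under 0.05 in limma, beside 5.59% of all genes tested. Tmem119 stood at 2.53 and 3.107 FPKM and C1qb at 10.997 and 10.3 FPKM. Fewer cells of a type and less RNA per cell cannot be told apart in such bulk libraries, and the part of these cells in the Klf4 values was not tested.

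The remaining marker lists had medians on both sides of 0 and no gene called other than Slc1a3. Astrocyte markers had 6 of 10 above 0, with Fabp7 at 2319 and 2304 FPKM and Sox9 at 36.1 and 34.9 FPKM without and with BHB. Fibroblast and mural markers had 5 of 7 above 0, with Tagln at 3030 and 3104 FPKM, Acta2 at 1285 and 1334 FPKM and Pdgfrb at 26.8 and 26.2 FPKM. Under quantile normalization the log2 fold changes of Tagln and Acta2 turned to -0.03 and -0.04. Neuron markers had 2 of 6 above 0, with Stmn2 at 54.8 and 54.1 FPKM and Syt1 at 0.871 and 1.03 FPKM. Gad1, at 1.57 and 1.13 FPKM (log2 fold change -0.26, adjusted p = 0.881 in limma), was the 1 gene of the 6 with an unadjusted p under 0.05. Over all genes tested that share was 5.59%. Oligodendrocyte lineage markers had 5 of 7 above 0, with Cnp at 47.0 and 50.5 FPKM. Both tested ependymal markers lay below 0, with Foxj1 at 33.8 and 31.1 FPKM.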

How the data were processed

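The authors deposited 1 table of FPKM values with a column for each of 3 control and 3 BHB libraries. Per the labels' protocols, poly(A) RNA was selected with oligo-dT before Illumina TruSeq library construction. The submitters' processing notes name bcl2fastq 2.0, HISAT2, StringTie, DESeq2 and rn6, without roles or settings. For annotation, strand setting and the combining of transcripts the sources used here give nothing. Groups came from the titles.

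Values were used as log2(FPKM + 1) unscaled. Genes that reached 1 FPKM in 3 or more libraries were fitted, all genes together, with limma 3.58.1 in R 4.3.3 (lmFit, eBayes with trend, two-sided), adjusted by Benjamini-Hochberg with a threshold of 0.05. Each KLF gene also had an exact permutation test of its group means (scipy 1.17.1). The fit was tested on simulated data. Replicate numbers in the titles were checked as a block. The members, lists and tests were chosen with earlier results of these data known. By rule all 10 KLF genes were named, with up to 3 genes of each other list (the most abundant, and the smallest p in each direction) and the 3 genes most like each of the 3 KLF genes of smallest p. A gene that this rule selects is not reported here. List symbols absent from the table were matched by synonyms of a RefSeq gene table (GRCr8), from which no coordinates are given. Alternatives changed the pseudocount, minimum, scaling, eBayes settings, weights, block and libraries.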

Additional observations from a re-analysis of the deposited data

How the results depend on the processing

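No KLF gene was called under any of the 17 settings run, and among their values 158 kept their direction and 10 turned, each time with 1 library left out. Across leave-one-out fits the log2 fold change of Klf2 ran from -0.0064 to 0.196, of Klf3 from -0.0663 to 0.0019, of Klf5 from -0.0311 to 0.0256, of Klf10 from -0.0194 to 0.118, of Klf11 from -0.113 to 0.0120, of Klf13 from -0.122 to 0.0030 and of Klf15 from -0.0176 to 0.0705. Klf4 ran from 0.167 to 0.237 when a library was left out, and was at 0.343 with a pseudocount of 0.01. The number of KLF genes with an unadjusted p under 0.05 was 0 or 1 when a library was left out, 0 with the replicate block and 0 with a minimum of 5 FPKM, where Klf2 and Klf4 were not tested. Over all genes 4 were called without the eBayes trend (the cause was not tested) and 2 with the replicate block, which leaves fewer residual degrees of freedom. Replicate numbers did not pair the libraries: deviations from the group means correlated at -0.0899, 0.164 and -0.151 between same-numbered libraries (Pearson, over 12373 genes), and not every library correlated best with its own number. Leaving out a library gave 5 to 10 called genes.

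Among the other named genes 658 values kept their direction and call and 13 turned. Quantile normalization gave Acta2 -0.0372 and Tagln -0.0313. Leave-one-out ranges that crossed 0 were -0.0878 to 0.0225 (Elk3), -0.0675 to 0.0259 (Tgfb3), -0.0308 to 0.0764 (Ddit4), -0.0119 to 0.0886 (Smurf1), -0.0046 to 0.0944 (Siah1), -0.0362 to 0.0197 (Fabp7), -0.246 to 0.0398 (C1qb), -0.0718 to 0.0198 (Pdgfrb) and -0.0042 to 0.0638 (Tagln). In the immediate early list 1 gene in place of 2 was called without any single library, with no minimum, with a minimum of 5 FPKM (Fosb was not tested there), without the trend and with the replicate block. Depth is unknown, so no counting error can be given.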
